A study of Caenorhabditis elegans with 4 samples.

Results

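Fatty acids are built, lengthened and desaturated by a short chain of enzymes, and 10 *C. elegans* genes of this chain form the set described here. They are *pod-2*, at the start of synthesis, the desaturase genes *fat-1* to *fat-7*, and the elongase genes *elo-1* and *elo-2*. They were chosen by gene name from a table of 15286 genes, which holds 9 of the 10. *fat-5*, a desaturase gene acting on palmitic acid, was not analysed here. RNA was sequenced from gonads dissected from adult worms grown at 25 °C, with 2 biological replicates per strain. The H3.3K27M worms (FAS58, named FAS43 in the sample titles) carry *his-72(uge40[K27M]) III*, a lysine to methionine change in 1 histone H3.3 gene made by genome editing, and the wild-type worms are N2. The study used this strain to ask how the altered histone acts in germ cells. The edited allele is a single strain, the other H3.3 genes are not mutated, and a dissected gonad holds germ cells together with somatic sheath cells.

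Worms make all of their polyunsaturated fatty acids themselves. Acetyl-CoA carboxylase (POD-2) makes malonyl-CoA, fatty acid synthase (FASN-1) uses it to build palmitic acid, and ELO-2 lengthens palmitic to stearic acid. FAT-6 and FAT-7 convert stearic to oleic acid, and FAT-2 converts oleic to linoleic acid. FAT-1, the omega-3 desaturase, FAT-3, ELO-1 and FAT-4 then lead to arachidonic and eicosapentaenoic acid. Much of this synthesis takes place in the intestine, which sends lipid to the oocytes with yolk. In the gonad, polyunsaturated fatty acids enter membranes and are precursors of prostaglandins that guide sperm.

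Total counts ran from 28298609 to 32957429 per library, and at this depth 3 counts, taken as the detection floor, correspond to between 0.0919 and 0.105 CPM (counts per 1000000, with library totals scaled by TMM factors). Replicates differed by more than sampling noise in both strains. Transcripts of *his-72*, whose counts cannot tell the edited from the unedited allele, had 50.3 and 60.4 CPM in H3.3K27M gonads and 64.2 and 81.8 CPM in wild-type gonads. Germ line and oocyte genes were abundant in all 4 libraries. The oocyte yolk receptor gene *rme-2* had 6982 and 5793 CPM in H3.3K27M gonads and 12300 and 8831 CPM in wild-type gonads. Intestine markers differed between the libraries. The 15 measured ones summed to 15.9 and 23.6 CPM in H3.3K27M replicates 1 and 2, and to 381.5 and 3466 CPM in wild-type replicates 1 and 2. The yolk protein genes *vit-1* to *vit-6* gave most of it in H3.3K27M (12.1 and 18.8 CPM) and nearly all in wild type (375.1 and 3434 CPM). These 6 were called lower in H3.3K27M by edgeR, and the other 9 did not pass the test. Those 9 summed to 3.80 and 4.75 CPM in H3.3K27M gonads and to 6.31 and 32.1 CPM in wild-type gonads. The defining intestine factor gene *elt-2* stayed near the floor, with 3 and 6 counts in H3.3K27M libraries and 2 and 1 in wild-type libraries, and the gut esterase gene *ges-1* had 114 and 43 counts in H3.3K27M libraries against 5 and 19 in wild-type libraries.

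The 9 genes fell into a higher and a lower expressed part of the pathway in both strains. Per kilobase of exon, *elo-1*, *fat-1*, *pod-2*, *fat-4*, *fat-3* and *fat-2* followed each other in this order in H3.3K27M and in wild-type gonads, and *elo-2*, *fat-6* and *fat-7* came last in both. *elo-1* was at 97.97 CPM per kb in H3.3K27M gonads and 79.0 CPM per kb in wild-type gonads, above 93.5% and 91.2% of the tested genes. *fat-1* was at 76.0 and 63.9 CPM per kb, *pod-2* at 52.6 and 43.0, *fat-4* at 34.2 and 26.5, *fat-3* at 19.3 and 8.90, and *fat-2* at 13.1 and 6.07, each time H3.3K27M before wild type. The genes for the steps from palmitic to oleic acid stood far below them. *elo-2* was at 0.750 CPM per kb in H3.3K27M gonads and 1.77 in wild-type gonads, *fat-6* at 0.484 and 1.39, and *fat-7* at 0.0699 and 0.123. In H3.3K27M and wild type, *elo-2* was above 37.2% and 51.2% of the tested genes and *fat-6* above 31.5% and 48.6%. *fat-7* was above 11.2% and 11.35%, and *fat-2*, the lowest of the higher part, above 67.5% and 61.9%. In H3.3K27M gonads the ranges of the 2 replicates were separate between all neighbours in this order except *elo-2* and *fat-6*. In wild-type gonads they overlapped between *elo-1* and *fat-1*, between *fat-3* and *fat-2*, and between *elo-2* and *fat-6*.

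**Figure D1:**
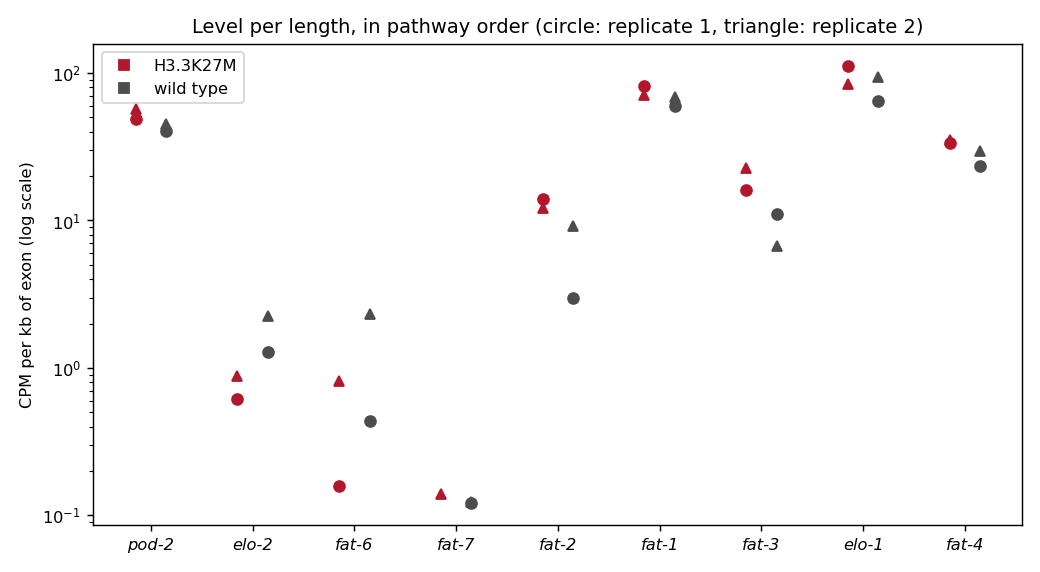
Level of each gene per kilobase of merged exon length (CPM per kb, log scale), ordered from the start of synthesis to the end products, with H3.3K27M in red left of wild type in grey and 1 point per library. *pod-2* and the genes of polyunsaturated fatty acid synthesis stand well above *elo-2*, *fat-6* and *fat-7*, and *fat-7* in H3.3K27M replicate 1, at 0 counts, is not drawn.

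The question of the comparison is which mRNAs differ between gonads with and without the oncohistone. A gene was called when its fold change exceeded 2 and its adjusted *p*-value was under 0.05 in the quasi-likelihood test of edgeR, with Benjamini-Hochberg adjustment over 15261 genes. None of the 9 genes was called, whereas 5.89% of all genes tested were called, 4.43% higher and 1.46% lower. Of the genes averaging 1 CPM or more, 9.6% were called. At an unadjusted *p*-value under 0.05 the count was 1 of 9, *fat-3*, against 24.7% of all genes. DESeq2 called 1 of the 9 higher, *fat-3*, and none lower, against 8.05% of all genes called higher and 3.42% lower. The median log2 fold change of the 9 genes was 0.29, and that of all genes tested was -0.11. In 5 of the 9 genes both H3.3K27M libraries were above both wild-type libraries, an arrangement found in 24.1% of all genes, and in 1 gene, *elo-2*, both were below, as in 32.7% of all genes. The set was proposed with results of these counts known, so the values below describe each gene within the fit of the whole table. In these bulk samples, fewer cells of a type and less RNA per cell cannot be told apart.

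*pod-2* (WBGene00004076, chromosome II of WBcel235, 1136785 to 1152705, plus strand) had 332 and 388 CPM in H3.3K27M replicates 1 and 2, against 279 and 310.4 CPM in wild-type replicates 1 and 2. The strains did not overlap, but the gap between them was smaller than the gap within each. The strains differed by a log2 fold change of 0.29 (SE 0.18, 95% interval -0.15 to 0.73, adjusted *p* = 0.366 from edgeR). Its partner *fasn-1*, which encodes fatty acid synthase and is described from the wider pathway, had 361 and 259 CPM in H3.3K27M gonads and 454 and 321 CPM in wild-type gonads, with overlapping strains and a log2 fold change of -0.32 (95% interval -0.95 to 0.30, adjusted *p* = 0.468 from the same edgeR test). A gene on the opposite strand that overlaps *pod-2*, W09B6.4, had between 2.11 and 4.74 CPM.

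The genes of the next steps had few counts. *elo-2* (WBGene00001240, chromosome IV, 17466062 to 17467408, minus strand) had 21 and 29 counts in H3.3K27M libraries against 39 and 67 in wild-type libraries, or 0.643 and 0.913 CPM against 1.33 and 2.34 CPM. All H3.3K27M values were lower, with wild-type replicate 2 the highest. The log2 fold change was -1.23 (SE 0.64, 95% interval -2.80 to 0.33, adjusted *p* = 0.287 from edgeR). *fat-6* (WBGene00001398, chromosome IV, 11913692 to 11915687, minus strand) had 6 and 30 counts in H3.3K27M libraries and 15 and 78 in wild-type libraries, so that the replicates differed about 5-fold within each strain, more than the strain means differed. Its log2 fold change of -1.52 had a 95% interval from -4.07 to 1.04 (adjusted *p* = 0.407 from edgeR), and without wild-type replicate 2 it was 0.13. *fat-7* (WBGene00001399, chromosome V, 7151353 to 7153146, minus strand) had 0 and 5 counts in H3.3K27M libraries and 4 and 4 in wild-type libraries, too near the floor for a fold change. FAT-6 and FAT-7 are close copies, and reads could have been divided between them in the counting, so their sum is the safer value. It was 6 and 35 counts in H3.3K27M libraries and 19 and 82 counts in wild-type libraries, and most of it was *fat-6* in every library. *fat-6* gave all 6 counts in H3.3K27M replicate 1 and 85.7% of 35 in replicate 2, and 78.9% of 19 and 95.1% of 82 in wild-type replicates 1 and 2. The exact 95% binomial interval was 69.7 to 95.2% in H3.3K27M replicate 2 and 88.0 to 98.7% in wild-type replicate 2, for counting error only.

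Wild-type replicate 2, where *elo-2* and *fat-6* were highest, was also the library with the highest summed level of intestine markers. The yolk protein gene *vit-2* had 4.84 and 5.07 CPM in H3.3K27M gonads and 82.4 and 773 CPM in wild-type gonads. H3.3K27M replicate 2 had more *fat-6* than wild-type replicate 1 although its intestine marker sum was lower. The part of intestinal RNA in these 2 genes was not tested.

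*fat-2* (WBGene00001394, chromosome IV, 13323873 to 13326395, plus strand), which opens the polyunsaturated branch, had 17.5 and 15.4 CPM in H3.3K27M gonads, against 3.75 and 11.5 CPM in wild-type gonads. The H3.3K27M replicates were close together and wild-type replicate 1 stood apart, with 110 counts against 329 in replicate 2. The means were 16.4 ± 1.52 CPM in H3.3K27M and 7.61 ± 5.45 CPM in wild type (SD, n = 2 each). Between the strains the log2 fold change was 1.11 (SE 0.47, 95% interval -0.02 to 2.25, adjusted *p* = 0.208 from edgeR). The wild-type libraries set its size, since it was 0.55 without wild-type replicate 1 and 2.13 without wild-type replicate 2.

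*fat-1* (WBGene00001393, chromosome IV, 13315644 to 13318811, plus strand) lies 5.06 kb from *fat-2* on the same strand, and FAT-1 can act on the linoleic acid that FAT-2 makes. It had 116 and 99.8 CPM in H3.3K27M gonads against 84.0 and 97.0 CPM in wild-type gonads. The lower H3.3K27M library and the higher wild-type library were almost equal. This is a log2 fold change of 0.25 (SE 0.18, 95% interval -0.19 to 0.69, adjusted *p* = 0.425 from edgeR). Of the reads on the pair, *fat-1* held 86.8% and 86.7% in H3.3K27M and 95.7% and 89.4% in wild type, so *fat-2* held a larger share in both H3.3K27M libraries than in either wild-type library. The exact 95% binomial intervals nearest to each other were 85.8 to 87.8% in H3.3K27M replicate 1 and 88.3 to 90.5% in wild-type replicate 2. They cover counting error only, and by the same measure the wild-type replicates were apart from each other (94.9 to 96.5% in replicate 1).

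*fat-3* (WBGene00001395, chromosome IV, 9803023 to 9806119, plus strand), whose enzyme starts the conversion of linoleic acid towards arachidonic acid, had the lowest *p*-value of the 9 genes. It had 778 and 1074 counts in H3.3K27M libraries and 485 and 287 counts in wild-type libraries. This is 23.8 and 33.8 CPM in H3.3K27M gonads, against 16.6 and 10 CPM in wild-type gonads. The strains did not overlap, and the means of 28.8 ± 7.07 CPM and 13.3 ± 4.63 CPM (SD, n = 2 each) in H3.3K27M and wild type differed 2.17-fold. On the log2 scale the fold change was 1.12 (SE 0.31, 95% interval 0.35 to 1.88). The *p* was 0.0112 before and 0.106 after adjustment in edgeR, so *fat-3* did not pass the threshold. DESeq2 gave an adjusted *p* of 0.0157, and edgeR gave 0.184 once replicate number entered as a block. The fold change ranged from 0.80 without wild-type replicate 2 to 1.57 without wild-type replicate 1 (log2). Its libraries ran in the same order as those of *spe-41*, a sperm calcium channel gene, which had 77.2 and 102.5 CPM in H3.3K27M replicates 1 and 2 and 22.9 and 5.61 CPM in wild-type replicates 1 and 2. *spe-41* gave most of the summed level of 6 sperm markers, which was 81.9 and 111.7 CPM in H3.3K27M gonads and 25.3 and 7.36 CPM in wild-type gonads. Of the other sperm markers *gsp-3* ran in this order and *spe-9*, *gsp-4*, *ssp-16* and *msp-142* did not, *msp-142* with 0 and 0 counts in H3.3K27M libraries and 6 and 1 in wild-type libraries. None of the 6 was called by edgeR, between 0 and 3 of them were at or under the floor in a library, and the part of sperm RNA in *fat-3* was not tested. These genes were named after their values were seen.

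*fat-4* (WBGene00001396, chromosome IV, 9799429 to 9802226, plus strand) ends 796 bases before *fat-3* begins, on the same strand, and FAT-4 makes the final double bond of arachidonic acid. It had 51.5 and 53.8 CPM in H3.3K27M gonads and 35.8 and 45.8 CPM in wild-type gonads. Both H3.3K27M libraries were higher, and the log2 fold change was 0.37 (SE 0.20, 95% interval -0.11 to 0.84, adjusted *p* = 0.298 from edgeR). These neighbours did not keep 1 ratio across libraries. *fat-3* held 31.6% and 38.6% of the reads on the pair in H3.3K27M replicates 1 and 2, and 31.6% and 17.9% in wild-type replicates 1 and 2, so that H3.3K27M replicate 1 equalled wild-type replicate 1. This pair was looked at after its values were seen.

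*elo-1* (WBGene00001239, chromosome IV, 9526366 to 9528336, plus strand) encodes the elongase that acts between FAT-3 and FAT-4. It had 118.6 and 89.3 CPM in H3.3K27M gonads and 68.8 and 98.9 CPM in wild-type gonads. The strains overlapped, with wild-type replicate 2 above H3.3K27M replicate 2. Its log2 fold change was 0.31 (SE 0.25, adjusted *p* = 0.467 from edgeR), and the 95% interval from -0.29 to 0.91 left out a difference of 2-fold in either direction. The same holds for the intervals of *pod-2*, *fat-1* and *fat-4*, but not for those of *fat-2*, *fat-3*, *fat-6* and *elo-2*.

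**Figure D2:**
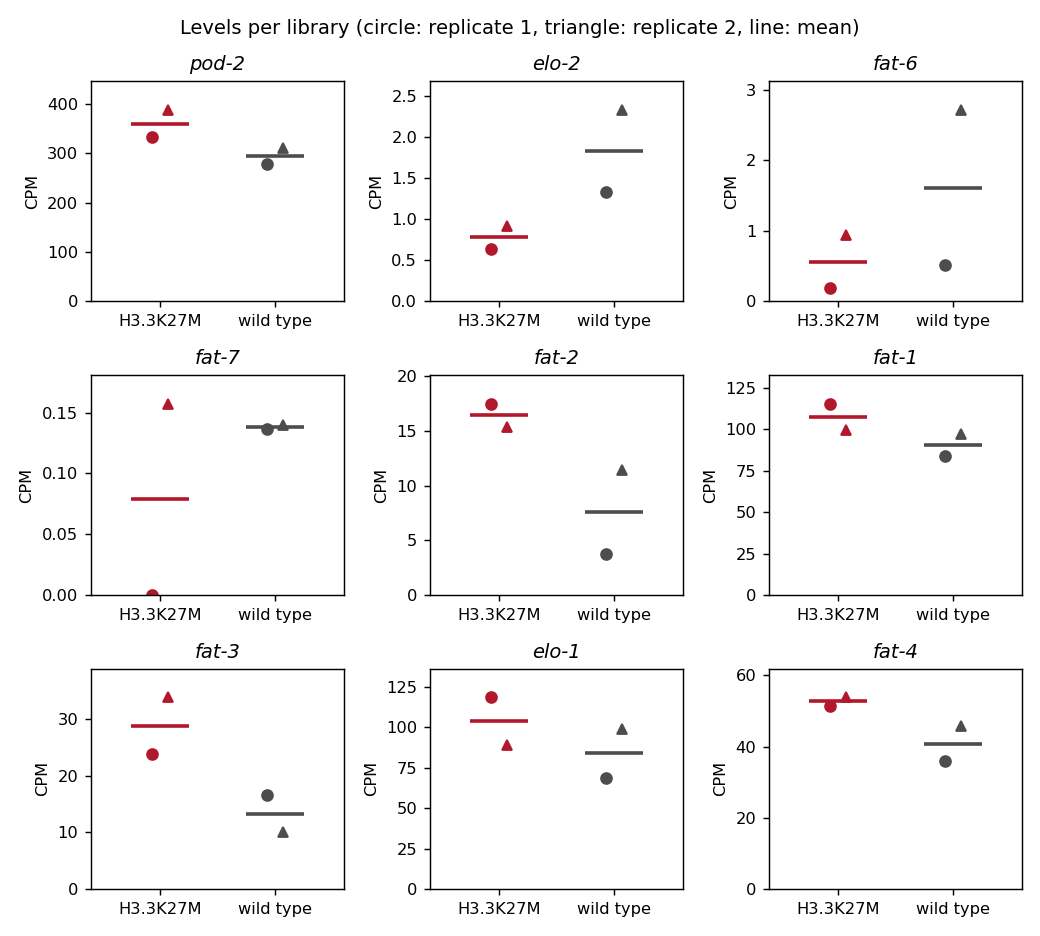
Level of each of the 9 genes in each library (CPM, linear axes from 0), with H3.3K27M in red left of wild type in grey, replicate 1 as a circle, replicate 2 as a triangle and the mean as a line. The strains do not overlap for *pod-2*, *fat-1*, *fat-2*, *fat-3* and *fat-4*, higher in H3.3K27M, and *elo-2*, lower in H3.3K27M. Of all genes tested, 24.1% had both H3.3K27M libraries above both wild-type libraries and 32.7% had both below. None of the 9 genes passed the threshold.

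**Figure D3:**
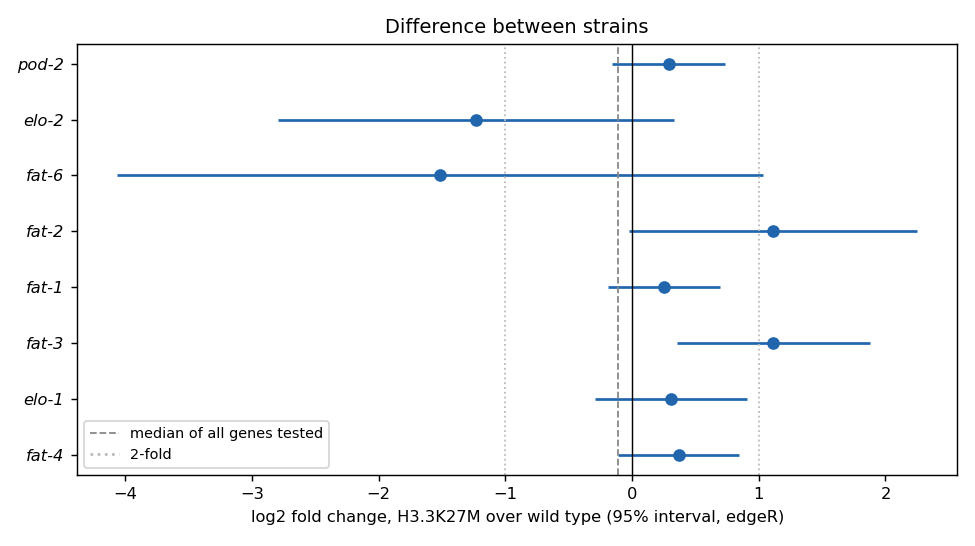
Log2 fold change of H3.3K27M over wild type for 8 genes, with 95% intervals from edgeR's fit of all genes, dotted lines at 2-fold and a dashed line at the median of all genes tested (-0.11). The interval of *fat-3*, 0.35 to 1.88, is the only 1 above 0, and *fat-7*, with at most 5 counts, is not drawn.

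7 of the 9 genes lie on chromosome IV, *pod-2* lies on chromosome II and *fat-7* on chromosome V, and none is X-linked. No annotated gene overlaps any of the 7 on chromosome IV or *fat-7*. With 2 libraries a strain, the smallest two-sided *p* of an exact permutation test is 0.333, so every *p*-value from edgeR rests on the spread that edgeR shares across genes.

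Of the 9 genes *elo-1* to *elo-9* 1 was called, *elo-6*, which rose in H3.3K27M, against the 5.89% called of all genes. ELO-5 and ELO-6 lengthen branched-chain fatty acids made from branched amino acid precursors. *elo-6* had 443 and 538 counts in H3.3K27M libraries against 97 and 145 in wild-type libraries, or 13.6 and 16.9 CPM against 3.31 and 5.05 CPM. All H3.3K27M values were higher, and the log2 fold change was 1.87 (SE 0.31, adjusted *p* = 0.0246 from edgeR). The call was lost with the replicate number as a block (adjusted *p* = 0.0568 from edgeR). It was also lost with any 1 library left out, as were most calls over all genes. The log2 fold change then lay between 1.63 and 2.20. *elo-5* pointed the other way without passing the test. It had 21 and 18 counts in H3.3K27M libraries and 64 and 299 in wild-type libraries, again highest in the library with most intestine marker reads, with a log2 fold change of -3.37 (SE 0.94, adjusted *p* = 0.105 from edgeR) and of -1.84 without wild-type replicate 2. *elo-8* had 104 and 117 counts in H3.3K27M libraries and 11 and 32 in wild-type libraries. *elo-4* had 79 and 149 in H3.3K27M libraries and 35 and 8 in wild-type libraries. This was the order of *spe-41* and *gsp-3* but not of the other sperm markers, and the part of sperm RNA in *elo-4* was not tested. Neither *elo-8* nor *elo-4* passed the test in edgeR (log2 fold changes of 2.20 and 2.25, adjusted *p* = 0.0980 and 0.137). DESeq2 called *elo-8* (adjusted *p* = 0.0286) and *elo-5* (adjusted *p* = 0.000589). The log2 fold change of *elo-8* was 3.18 without wild-type replicate 2 and 1.65 without wild-type replicate 1. For *elo-4* it was 3.69 without wild-type replicate 1 and 1.57 without wild-type replicate 2. *elo-3* was level, at 7.96 and 7.12 CPM in H3.3K27M and 6.08 and 9.06 CPM in wild type, and *elo-7* and *elo-9* had at most 13 counts in any library. *elo-5* is overlapped on the opposite strand by the abundant gene F41H10.3, at 231 and 202 CPM in H3.3K27M gonads and 204 and 185 CPM in wild-type gonads, and the handling of strand in the counting is not stated. Measured genes also overlap *elo-3* and *elo-4* on the opposite strand. *elo-3*, *elo-4*, *elo-5* and *elo-8* were singled out after their values were seen.

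5 lists of related lipid genes, 55 genes in all, held 2 genes that were called higher and 2 that were called lower by edgeR, against the 5.89% called of all genes and 9.6% of those averaging 1 CPM or more. Among 14 other genes of synthesis and elongation, 1 rose, *elo-6*, and 13 did not pass the test in edgeR. The median log2 fold change of the 14 was -0.21. DESeq2 called 3 of the 14 higher and 1 lower, against 8.05% of all genes higher and 3.42% lower. The 14 include the enzymes that complete each elongation cycle, such as *art-1*, an enoyl reductase gene. It had 99.0 and 100.4 CPM in H3.3K27M and 102 and 104 CPM in wild type. None of 8 regulators of desaturase genes was called by edgeR or DESeq2, with a median of 0.16. 1 of them was under an unadjusted *p* of 0.05 in edgeR, against 24.7% of all genes. This was *nhr-49*, a nuclear receptor gene that activates *fat-5*, *fat-6* and *fat-7* and fatty acid breakdown genes. It had 140.5 and 154 CPM in H3.3K27M gonads and 107 and 111 CPM in wild-type gonads, a log2 fold change of 0.44 (adjusted *p* = 0.176 from edgeR). The regulator with the highest mean CPM over the 4 libraries, *nhr-66*, had 228 and 331 CPM in H3.3K27M and 209.7 and 123 CPM in wild type, which did not pass the test (log2 fold change 0.75, adjusted *p* = 0.204 from edgeR).

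Of 13 fatty acid breakdown genes, 1 fell, *acdh-1*, and 12 did not pass the test, with a list median of -0.32. *acdh-1*, an acyl-CoA dehydrogenase gene of propionate and branched-chain breakdown, had 20 and 16 counts in H3.3K27M libraries against 174 and 660 in wild-type libraries. It was lower in both H3.3K27M libraries, with a log2 fold change of -4.68 (SE 0.88, adjusted *p* = 0.0350 from edgeR). Without wild-type replicate 2 the log2 fold change was -3.40. The call was lost with any 1 library left out, as were most calls over all genes. The peroxisomal genes *dhs-28*, with 0 and 4 counts in H3.3K27M libraries against 30 and 50 in wild-type libraries, and *daf-22*, with 0 and 0 in H3.3K27M libraries against 10 and 23 in wild-type libraries, had fewer counts in both H3.3K27M libraries and did not pass the test (adjusted *p* = 0.0741 and 0.137 from edgeR). DESeq2 called *dhs-28* (adjusted *p* = 0.0222) and gave no adjusted *p* for *daf-22*. This pair was named after its values were seen. All 3 genes were highest in wild-type replicate 2 and next in wild-type replicate 1, as was the summed level of the intestine markers, and the part of intestinal RNA in them was not tested. The mitochondrial import gene *cpt-1* had 254 and 203 CPM in H3.3K27M and 198 and 222 CPM in wild type, with a log2 fold change of 0.12 (adjusted *p* = 0.722 from edgeR).

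DESeq2 called 1 of 8 fatty acid binding protein genes higher, against 8.05% of all genes. None of the 8 was called by edgeR, and their median was -0.21. At an unadjusted *p* under 0.05 in edgeR there was 1, against 24.7% of all genes. This was *lbp-2*, named after its values were seen. It had 26 and 501 counts in H3.3K27M libraries and 7 and 24 in wild-type libraries, so that H3.3K27M replicate 2 stood alone (adjusted *p* = 0.178 from edgeR). The one with the highest mean CPM over the 4 libraries, *lbp-9*, had 141 and 129 CPM in H3.3K27M gonads and 117 and 159 CPM in wild-type gonads. Of 12 triglyceride and phospholipid genes, 1 rose and 1 fell, with a median of -0.09. *ckb-1*, a choline kinase gene on chromosome III, had 1005 and 757 counts in H3.3K27M libraries and 78 and 110 in wild-type libraries, which is 30.8 and 23.8 CPM against 2.66 and 3.83 CPM. Its log2 fold change was 3.07 (SE 0.30, adjusted *p* = 0.00513 from edgeR), and between 2.86 and 3.36 with 1 library left out. The call was then lost, as were most calls over all genes. *pcyt-1*, a phospholipid synthesis gene on chromosome X, had 56 and 97 counts in H3.3K27M libraries and 246 and 260 in wild-type libraries, a log2 fold change of -1.87 (adjusted *p* = 0.0427 from edgeR). Its call was lost with RLE normalization (adjusted *p* = 0.0509 from edgeR), the low-count filter, edgeR's legacy method and the replicate block, and kept with DESeq2. The call was also lost with any 1 library left out, as were most calls over all genes. The gene *unc-98*, on the opposite strand, overlaps *pcyt-1* and had 8.73 and 6.71 CPM in H3.3K27M and 12.7 and 4.53 CPM in wild type. The phosphatidate phosphatase gene *lpin-1*, with the highest mean CPM of the list over the 4 libraries, had 195 and 156 CPM in H3.3K27M and 144 and 158 CPM in wild type (log2 fold change 0.21, adjusted *p* = 0.511 from edgeR).

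**Figure D4:**
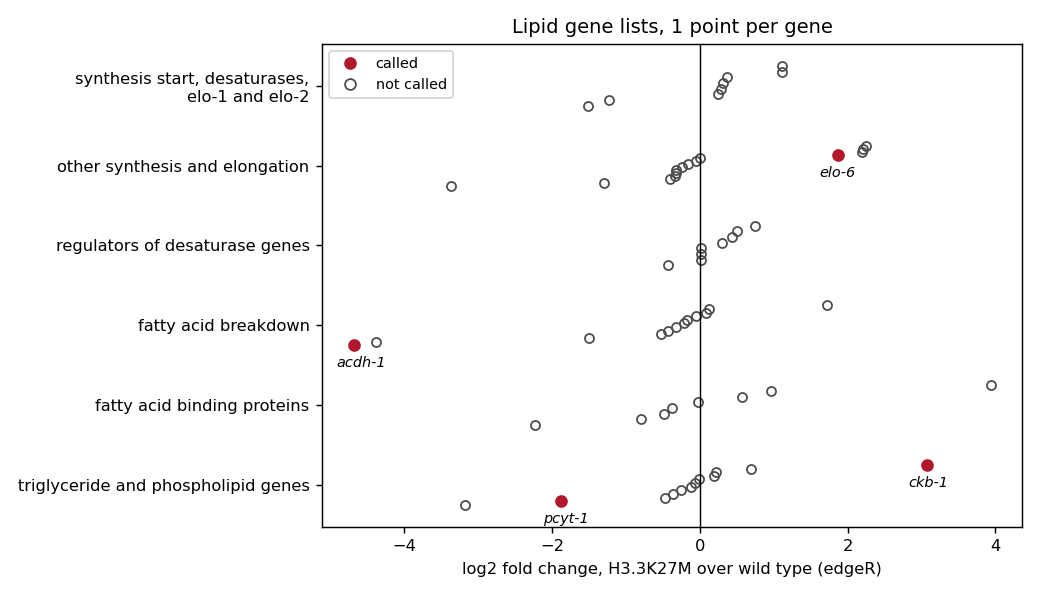
Log2 fold change of H3.3K27M over wild type for the 9 genes (top row) and 5 lists of related lipid genes, 1 point per gene, with called genes filled and named. *fat-7* and *daf-22*, whose fold changes cannot be measured at their counts, are not drawn. *elo-6* and *ckb-1* were called higher and *acdh-1* and *pcyt-1* lower, and no gene of the top row was called. Of all genes tested, 5.89% were called.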

How the data were processed

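Gonad RNA of 2 H3.3K27M and 2 wild-type libraries, 28298609 to 32957429 counts each, was prepared by the authors with a stranded mRNA kit, and 50-base reads were mapped with TopHat2 2.0.13 to WBcel235. HTSeq 0.6.1 and edgeR 3.10.5 are also named in the submitters' processing notes. The handling of strand and of reads matching several genes is not given in the sources used here. Besides the overlaps named above, measured genes overlap *nhr-66*, *dhs-28* and *lbp-9* on the opposite strand. The authors deposited raw counts per gene, used for every result here, and normalized counts, a library-scaled signal, which were not used, like their fold changes and *p*-values. Counts were scaled with TMM and fitted with edgeR 4.0.16 in R 4.3.3, over 15261 genes that had any count, the model holding strain alone. The thresholds of a call are those of the study's methods. A standard error (SE) is the size of a log2 fold change over the root of its F statistic, and 95% intervals use the degrees of freedom of the test. The fit was checked on simulated data. Exon lengths and positions came from Ensembl release 115 of WBcel235, which holds 15159 of the 15286 genes. Binomial intervals came from scipy 1.17.1.

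The named genes are the 10 genes of the set, the called genes and the gene with the highest mean CPM of each lipid list, *ges-1*, *elt-2*, *vit-2* and *rme-2*, and others where marked. *art-1*, *nhr-49* and the remaining elongase genes were added with their values known. The set and the lists were chosen with earlier results of these data known. Lists of tissues other than the intestine were also counted with edgeR: 7 hypodermis, 6 body wall muscle, 7 neuron and 8 germ line genes held none called, nor did 6 oocyte and 6 sperm genes, and of 8 somatic gonad genes 1 was called lower (*plc-1*). With 5.89% called of all genes, lists this short can easily hold none, so these counts say little about tissue content. Alternatives were RLE normalization, DESeq2 1.42.0, a low-count filter, edgeR's legacy method, a replicate block, the adjusted *p* alone and leaving out each library. One field of the labels describes embryos and larvae at 20 °C, while the other labels give adult gonads at 25 °C, as taken here. The study's methods for the RNA give dissected gonads of worms grown at 25 °C and name no stage. The deposited table had 0 sample columns that could not be mapped.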

Additional observations from a re-analysis of the deposited data

How the results depend on the processing

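With RLE, filterByExpr, the legacy method, a replicate block, the adjusted *p* alone or any library left out, 0 of the 9 genes were called (*fat-7* did not pass filterByExpr and was not tested there). DESeq2 called 1 higher, *fat-3*. Of 89 log2 fold changes of the 9 genes under these alternatives, 2 changed sign, for *fat-6* and *fat-7*. The adjusted *p* alone uses the main fit, so its values could not change. *fat-6* ran from -3.10 to 0.13 with libraries left out (0.13 without wild-type replicate 2). *fat-7* ran from -5.102 to 0.24 (0.24 without H3.3K27M replicate 1), and its fitted values at under 6 counts are no measured folds. The near-level *lbp-9* turned to 0.004 with RLE and with DESeq2, and ran from -0.20 to 0.21 with libraries left out. *elo-3* turned to 0.03 with RLE, 0.029 with DESeq2, 0.003 with filterByExpr and 0.015 with the replicate block, and ran from -0.23 to 0.31 with libraries left out.

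Over all genes, 676 were higher and 223 lower. DESeq2 gave 1228 and 522. With libraries left out in turn, between 0 and 101 genes were higher and between 0 and 17 lower, so a lost call there says little about 1 gene. Among the 55 lipid genes, 2 higher and 2 lower became 5 and 4 with DESeq2 and 0 and 0 with any library left out, while the lower count was 1 with RLE, with filterByExpr and with the legacy method. The replicate block gave 372 higher and 91 lower genes over all, and 1 and 1 among the lipid genes. The labels link same-numbered libraries by number alone and do not say whether they were prepared together. The deviations of same-numbered libraries correlated at -0.12 over 9237 genes. The crossed pairing, chosen after seeing the data, gave 640 and 216. The cause of these differences was not tested. Precision is limited by the 2 libraries per strain and, for *fat-7*, *fat-6* and *elo-2*, by low counts.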
